A study of Sus scrofa with 75 samples.

Results

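The genes described here are those of the natriuretic peptide system: NPPA and NPPB, which encode the atrial and B-type peptides, CORIN, which encodes a protease that activates them, and NPR1, NPR2 and NPR3, which encode their receptors. They were chosen by gene name and make up 6 of the 35798 genes of the deposited table; all 6 were found. Natriuretic peptides are hormones that the heart muscle releases when its walls are stretched, and they lower blood pressure and promote salt loss by the kidney. NPR1 binds both cardiac peptides and NPR2 binds the C-type peptide. Both are guanylyl cyclases that raise cyclic GMP in the target cell. NPR3 lacks the cyclase part and is best known for taking the peptides out of circulation.

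RNA came from heart, kidney, liver, lung and spleen of adult male pigs aged 12 months. The animals used here carried the codes BS (4 animals) and DSE (4 animals), codes that the labels leave unexplained, and no treatment is named. Illumina libraries made after ribosomal RNA depletion covered all 5 organs of the 8 animals (40 libraries), with levels as TPM, a relative level per transcript length within a library. PacBio IsoSeq, which reads whole transcripts, covered each organ of each pig group once (10 libraries, with 119623 to 456783 full-length reads each), so it has no replicates within a pig group. A further group coded DT was not analysed here. The same animal code in the 5 organs was taken to be 1 animal. The short-read depth is unknown because every library sums to 1000000.

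The organs matched their labels: the highest level of a defining marker was in its own organ for TNNT2 (lowest heart library 7430 TPM), UMOD (lowest kidney library 2458 TPM), ALB (lowest liver library 36487 TPM), SFTPC (lowest lung library 13899 TPM) and SPIC (lowest spleen library 349 TPM). The liver library of animal BS4 stood apart. Its 9 measured cardiomyocyte markers summed to 272 TPM, against 0.658 to 5.25 TPM in the other 7 liver libraries. The limma tests of gene levels in liver were therefore also computed without the BS4 library. Transcript shares, receptor ratios and marker sums given for liver include it. Transcripts of the mitochondrial genome took 33.9% to 46.0% of TPM in heart and 4.78% to 27.1% in the other organs. Within heart the share was 33.9% to 36.1% in BS and 38.3% to 46.0% in DSE, without overlap. Scaling by the median ratio of all genes moved the median gene on the log2 scale by 0.57 (heart), 0.68 (liver), -0.22 (kidney), -0.63 (lung) and -0.39 (spleen). Removing the mitochondrial genes moved it by 0.61 (heart), 0.12 (liver), 0.34 (kidney), 0.11 (lung) and 0.10 (spleen). What lies behind the median-ratio shifts was not tested. Directions between organs below are on the TPM scale. Each one that passed the test and turned under another scaling is named, and orders that did not pass may turn without being named.

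On the pig genome build susScr11, NPPA (ENSSSCG00000061442) lay on the minus strand of chromosome 6 at 71918845 to 71921405. NPPB (ENSSSCG00000003431) followed on the same strand at 71930365 to 71932254, with 8959 bases between the genes. NPR1 (ENSSSCG00000006572) lay on chromosome 4 at 95957228 to 95973430 (minus strand). NPR2 (ENSSSCG00000005322) lay on chromosome 1 at 236508998 to 236529148 (plus strand). NPR3 (ENSSSCG00000036201) lay on chromosome 16 at 18841399 to 18929810 (plus strand). CORIN (ENSSSCG00000008813) was the longest, on chromosome 8 at 37530811 to 37809837 (minus strand). No exon of the 6 genes overlapped an exon of another annotated gene. For NPR2 this was looked at closely, because SPAG8, a sperm-associated gene, is its neighbour. SPAG8 ran on the opposite strand from 236529268 to 236534734, tail to tail with NPR2 and 119 bases away from it, so that 0 of the NPR2 transcripts overlapped it.

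The peptide genes and their activating enzyme were heart genes in these pigs, while the receptors were found in all 5 organs. NPPA, NPPB and CORIN were at least 4-fold higher in heart than in each of the other 4 organs by limma on log2(TPM + 1). This was 3 of 6 genes, beside 1.75% of the 16481 genes tested (1.48% had such a lead in spleen, 2.2% in liver, 2.56% in kidney and 2.64% in lung). NPR1, NPR2 and NPR3 met this rule in no organ. Over the 10 organ pairs, 29 of 60 comparisons of the 6 genes passed an adjusted p of 0.05 (limma, Benjamini-Hochberg over all genes) with at least a 2-fold difference. Against heart the called genes numbered 5 of 6 for liver, where 32.7% of all genes tested were called, and 4 of 6 for kidney (42% of all genes), lung (58.7%) and spleen (49.7%). Between the other organs they numbered 3 of 6 for kidney against liver (40.9%), 2 of 6 for kidney against lung (38.8%), kidney against spleen (38.3%), liver against lung (62.2%) and liver against spleen (54.4%), and 1 of 6 for lung against spleen (23.6%).

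**Figure D1:**
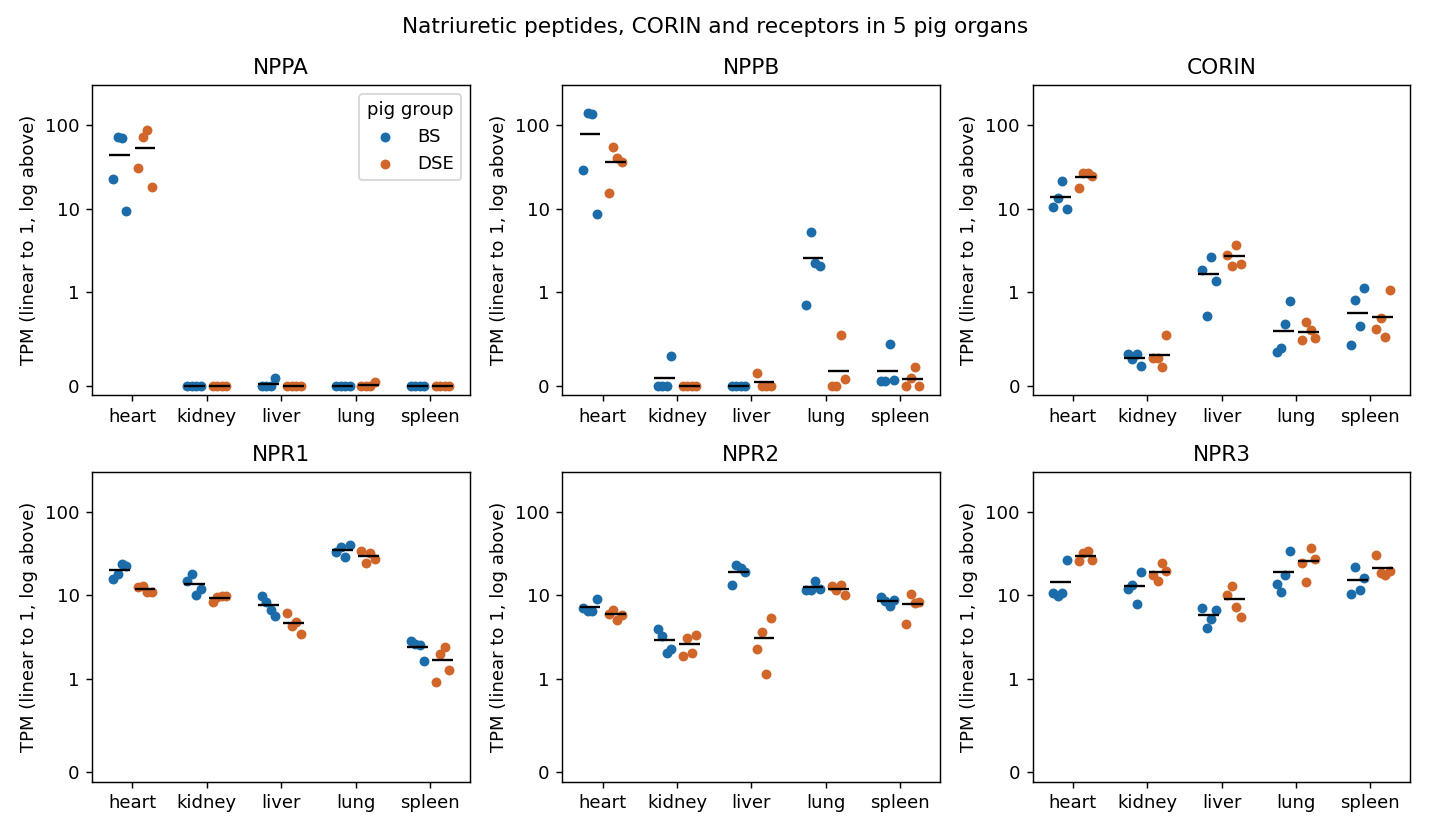
TPM (vertical axis, linear up to 1 and logarithmic above) of the 6 genes in heart, kidney, liver, lung and spleen; each point is 1 library, blue for BS and orange for DSE, and the short lines are means of 4 animals. NPPA, NPPB and CORIN stand high in heart, where NPPA ran from 9.31 to 87.9 TPM, while the receptors appear in every organ and NPR2 separates by pig group in liver.

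NPPA was measured in heart at 22.8, 72.1, 70.0 and 9.31 TPM in BS animals 1 to 4 and at 30.8, 72.6, 87.9 and 18.2 TPM in DSE animals 1 to 4. In each group animals 2 and 3 were high and animal 4 was low, and the groups overlapped. A shared number was not found to pair a BS with a DSE animal. Outside the heart NPPA was listed at 0 in 30 of 32 libraries. The other two were the BS4 liver library at 0.0805 TPM, which is the library with cardiomyocyte markers, and the DSE4 lung library at 0.0368 TPM. On the log2(TPM + 1) scale the heart lay 5.26 to 5.28 above each other organ (SE 0.26, largest adjusted p = 2.09e-19, limma).

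NPPB was the more variable peptide gene. Its heart levels were 29.2, 140, 136 and 8.64 TPM in BS and 15.2, 54.1, 40.6 and 36.2 TPM in DSE, a mean of 57.5 ± 51.7 TPM (SD, n = 8). The lung came next, with 0.868, 5.24, 2.22 and 2.07 TPM in BS and 0, 0, 0.545 and 0.0719 TPM in DSE. All 4 BS lungs were above all 4 DSE lungs. Lung lay 0.80 above spleen on the log2(TPM + 1) scale (SE 0.33, adjusted p = 0.0352, limma), while spleen, kidney and liver, whose highest library had 0.448 TPM, did not differ from each other at this threshold (adjusted p = 0.755 to 0.956, limma). Heart exceeded lung by 4.41 on this scale (SE 0.33, adjusted p = 1.65e-14, limma).

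CORIN, the membrane protease that cuts the atrial propeptide, was less variable in heart than the peptide genes. It measured 10.4, 13.3, 21.4 and 9.98 TPM in BS hearts and 17.8, 26.5, 26.8 and 24.5 TPM in DSE hearts. The liver was next, from 0.747 to 3.73 TPM with a median of 2.14 TPM, and spleen, lung and kidney stayed at or below 1.12 TPM. Heart was 2.61 higher than liver on the log2(TPM + 1) scale (SE 0.14, adjusted p = 1.37e-18, limma), and liver was 0.82 higher than spleen (SE 0.14, adjusted p = 1.58e-06, limma). Neither spleen and lung nor lung and kidney differed at the threshold (adjusted p = 0.366 and 0.0786, limma), while spleen exceeded kidney by 0.41 (adjusted p = 0.00716, limma). The BS4 liver library did not lead this gene, at 1.37 TPM.

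The full-length reads were few, and most of those of CORIN and NPPB also came from heart. CORIN had 67 reads in the BS heart library and 85 in the DSE heart library, 3 in the liver libraries together, 1 in the BS kidney library and 0 in the lung and spleen libraries. With 3 reads taken as the limit that a count of 0 allows, this leaves up to 14.7 and 14.4 reads per 1000000 in the BS and DSE lung libraries, against 182 and 379 per 1000000 in heart. By the quasi-likelihood test of edgeR the CORIN counts were higher in heart than in each other organ (log2 difference 4.58 against liver, adjusted p = 2.28e-09). Of the 4110 genes tested, 21% were higher in heart than in kidney, 18.2% than in liver, 15.5% than in lung and 18.4% than in spleen. NPPB had 19 full-length reads in the BS heart and 0 in the DSE heart, where up to 13.4 per 1000000 remain possible, and 0 in all other libraries. Its counts were too few to enter this test. NPR3 had 14 reads in the BS heart and 3 in the BS liver, and NPR2 had 0 in all 10 libraries. For NPPA and NPR1 the long-read table listed no transcript. These counts carry counting error only, and single libraries do not show differences between pig groups.

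NPR1, the receptor of both cardiac peptides, was graded over the organs. Lung had 24.2 to 39.6 TPM (median 32.7), heart 10.8 to 23.4 (median 14.4), kidney 8.37 to 18.2 (median 10.1), liver 3.43 to 9.82 (median 5.87) and spleen 0.968 to 2.87 (median 2.22). No lung library overlapped a heart library and no spleen library overlapped a liver library, while kidney overlapped both heart and liver. Each step of this order passed the test (limma): lung exceeded heart by 1.01 on the log2(TPM + 1) scale (SE 0.13, adjusted p = 5.79e-09), heart exceeded kidney by 0.41 (adjusted p = 0.00378), kidney exceeded liver by 0.83 (adjusted p = 3.52e-07) and liver exceeded spleen by 1.21 (adjusted p = 9.27e-11). Under median-ratio scaling the first of these turned, with heart 0.28 above lung (adjusted p = 0.0298, limma), and kidney and liver no longer differed in this order (-0.08, adjusted p = 0.569, limma).

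NPR2 was highest in lung by median, at 10.04 to 14.7 TPM with a median of 11.8. Liver followed with a median of 9.35 TPM, then spleen at 4.57 to 10.3 TPM (median 8.52), heart at 5.15 to 9.10 TPM and kidney at 1.91 to 4.01 TPM. Liver held both extremes, with 13.3, 23.1, 21.0 and 19.0 TPM in BS and 2.32, 3.67, 1.15 and 5.39 TPM in DSE, so its mean of 11.1 TPM describes neither pig group. Heart exceeded kidney by 1.03 (log2(TPM + 1), SE 0.16, adjusted p = 4.49e-07, limma), and spleen and heart did not differ at the threshold (adjusted p = 0.128, limma). Averaged over the pig groups, lung exceeded liver by 0.60 (adjusted p = 7.91e-04, limma), but not with the animal as a block (adjusted p = 0.0517, limma). Median-ratio scaling turned this to -0.70 and turned heart against lung from -0.80 to 0.41. The order of lung and liver was opposite in the pig groups. In BS the liver mean was above the lung mean (19.1 and 12.5 TPM), and in DSE it was below (3.13 and 12.0 TPM).

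NPR3, the clearance receptor, was the most evenly spread. It ran from 11.1 to 37.0 TPM in lung, 9.80 to 34.2 in heart, 10.4 to 30.1 in spleen and 7.89 to 24.1 in kidney, ranges that overlapped throughout. No neighbour in this order differed at the threshold (adjusted p = 0.486 to 0.808, limma). Liver was lower at 4.12 to 13.04 TPM, 1.03 below kidney on the log2(TPM + 1) scale (SE 0.22, adjusted p = 7.26e-05, limma). Lung and heart changed places in both other scalings: heart was 1.22 above lung after median-ratio scaling (adjusted p = 1.18e-06, limma) and 0.50 above it after the mitochondrial genes were removed (adjusted p = 0.0372, limma).

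The balance between the clearance receptor and the signalling receptor does not depend on the scaling of a library. In spleen NPR3 exceeded NPR1 in all 8 animals, by 3.17 ± 0.97 on the log2 scale (SD, n = 8), with the lowest animal at 1.85 and the highest at 4.96. In lung the mean was -0.63 ± 0.66 (SD, n = 8), and 7 of 8 lungs were below 0. Heart, kidney and liver had means of 0.36, 0.45 and 0.25. An exact paired sign-flip test over the 8 animals (two-sided, smallest possible p = 0.00781, 10 organ pairs) called spleen above each of the other 4 organs (adjusted p = 0.0130 for each pair, 8 of 8 animals). Lung was below kidney and liver in 8 of 8 animals (adjusted p = 0.0130 for each) and below heart in 7 of 8 animals (exact test, adjusted p = 0.0223). Heart, kidney and liver did not differ from each other at the threshold (exact test, adjusted p = 0.381 to 0.617). Within pig groups the spleen mean was 2.61 in BS and 3.73 in DSE, and the lung mean was -1.005 in BS and -0.25 in DSE, so the organ difference had the same direction in both groups.

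**Figure D2:**
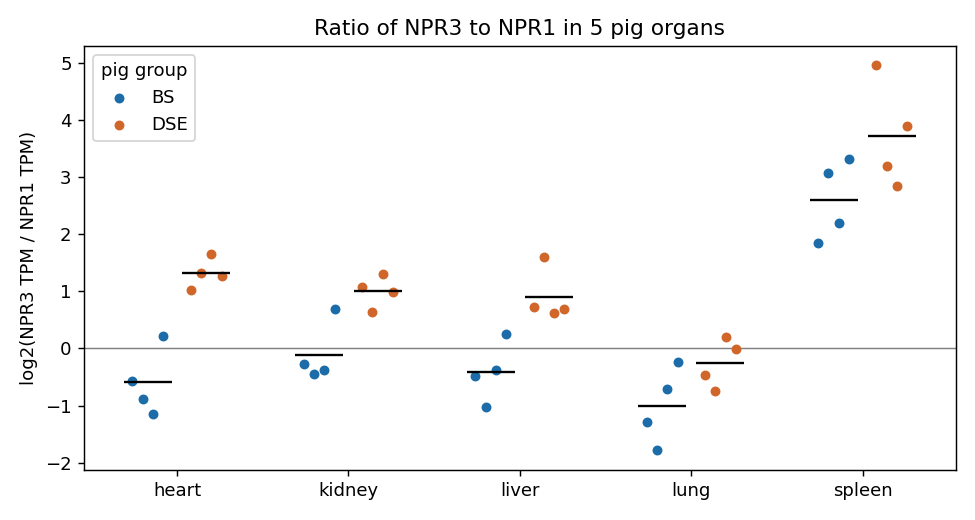
Log2 of the NPR3 TPM over the NPR1 TPM (vertical axis) in 5 organs; each point is 1 library, blue for BS and orange for DSE, short lines are means of 4 animals and the grey line marks equal levels. The spleen points lie between 1.85 and 4.96, above those of every other organ, and in heart and liver the 4 BS points lie below the 4 DSE points.

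The same ratio also separated the pig groups in heart and liver. In heart it was -0.58, -0.88, -1.15 and 0.21 in BS and 1.02, 1.33, 1.66 and 1.27 in DSE. In liver the BS animals lay between -1.03 and 0.25 and the DSE animals between 0.63 and 1.60. Kidney, lung and spleen had overlapping groups. These group values are a description without a test.

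Over the 40 libraries the genes with the most similar profiles were sought among 13515 genes with a symbol by Pearson's r of log2(TPM + 1). The libraries share 5 organs, so r mostly reflects which organ is high, and no test was made. NPPA was nearest to LRRC10 (r = 0.984), a heart muscle gene, to CCK (r = 0.983), which encodes cholecystokinin, and to TRIM54 (r = 0.979). NPPB was nearest to NPPA itself (r = 0.955), then POPDC2 and CCK. CORIN was nearest to TBX20 (r = 0.959), a cardiac transcription factor, then ASB4 and LRRC2. NPR1 was nearest to NFIB (r = 0.956), MCF2L (r = 0.938) and TMEM88 (r = 0.926). The other receptors had looser neighbours: for NPR3 the highest were GIN1 (r = 0.875), FXR1 and RRP15, and for NPR2 they were ICAM2 (r = 0.729), PYCR1 and CD81. Genes with r over 0.9 numbered 164 for NPPA, 117 for NPPB, 86 for CORIN, 8 for NPR1 and 0 for NPR2 and NPR3.

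Transcript levels, estimated by the authors from the short reads, showed a different make-up of NPR3 in heart. NPR3 had 5 transcripts. Those with at least 10% of its TPM were ENSSSCT00000083834 (9 exons, coding sequence of 1608 bases), PB.19079.10 (8 exons, 849 coding bases), PB.19079.23 (6 exons, 681 coding bases) and PB.19079.25 (6 exons, 612 coding bases). The names beginning with PB come from the long reads. PB.19079.23 and PB.19079.25 start inside the gene, at 18911823 and 18911824, and lack the exons before it. In heart PB.19079.23 made up 36.7% of NPR3 TPM, against 1.65% in spleen, 7.32% in lung, 11.2% in liver and 11.9% in kidney. PB.19079.10 did the opposite, with 71.4% in spleen, 51.3% in lung, 49.4% in liver, 42.1% in kidney and 20.3% in heart. The longest coding transcript varied less, from 17.5% in heart to 29.5% in liver.

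By limma on each transcript's log2 ratio to its gene's remaining transcripts, and requiring a shift of at least 20 percentage points, 11 NPR3 comparisons were called. For PB.19079.10 heart was below each other organ (adjusted p = 1.07e-07 against spleen, 1.68e-04 against lung, 5.32e-04 against liver and 0.00966 against kidney, limma). Its spleen share was also above those of kidney, liver and lung (adjusted p = 0.00174, 0.00398 and 0.0104, limma). For PB.19079.23 heart was above spleen, lung and kidney (adjusted p = 5.69e-05, 0.00771 and 0.0369, limma), and for PB.19079.25 heart was above spleen (adjusted p = 0.0490, limma). Among all transcripts tested, the called share for heart was 8.01% against kidney, 8.30% against liver, 6.74% against lung and 7.34% against spleen. It was 4.32% for kidney against spleen, 4.74% for liver against spleen and 1.37% for lung against spleen. The pairs with 0 NPR3 calls had 3.32% (kidney and liver), 3.81% (kidney and lung) and 4.3% (liver and lung). Leaving out 1 animal left 7 to 10 calls, with 7 when BS animal 3 or DSE animal 3 was left out. Between hearts the share of PB.19079.23 ran from 5.21% to 73.5% and that of PB.19079.25 from 0% to 49.5%, so their sum was also taken, a choice made after the values were seen.

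Together the 2 transcripts with the internal start made up 59.9% ± 12.2 of NPR3 TPM in heart (SD, n = 8), from 38.2% to 75.9%. The other means were 30.4% ± 19.1 in kidney, 21.8% ± 13.1 in lung, 20.8% ± 13.4 in liver and 4.19% ± 5.40 in spleen (SD, n = 8 each), and 4 spleen libraries had none. Because this sum was chosen after the shares were seen in these same libraries, its tests add no support beyond the values. The heart share was above liver, lung and spleen in 8 of 8 animals (exact paired sign-flip test, two-sided, adjusted p = 0.0260 for each) and above kidney in 7 of 8 animals (exact test, adjusted p = 0.0313). Within pig groups the heart mean was 67.5% in BS and 52.4% in DSE. Spleen was below kidney, liver and lung as well (exact test, adjusted p = 0.0313 to 0.0446). The full-length reads of the BS heart held 3 reads of PB.19079.23, 3 of PB.19079.25 and 7 of PB.19079.10, and the only other NPR3 reads in the table were 1 of a further transcript there and 3 reads in the BS liver.

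**Figure D3:**
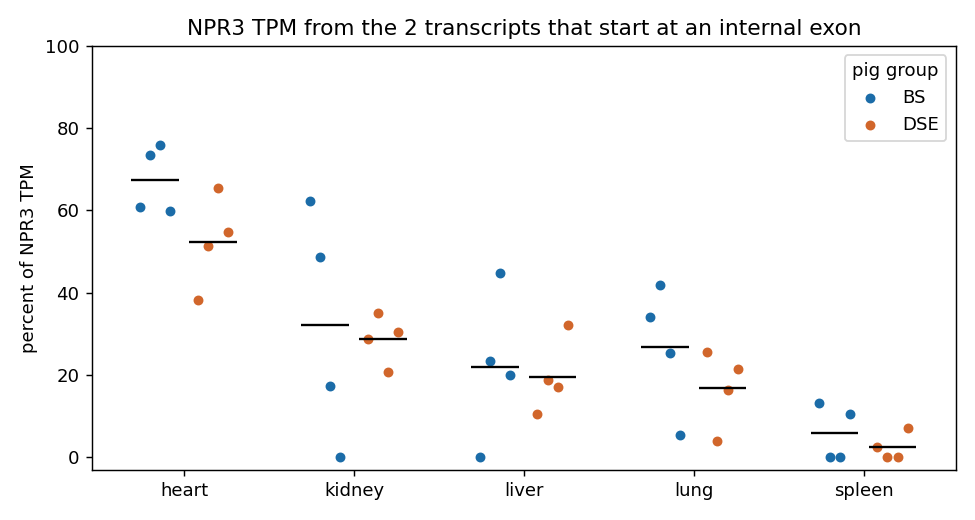
Percent of NPR3 TPM (vertical axis) from the 2 transcripts that begin at an internal exon, by organ; each point is 1 library, blue for BS and orange for DSE, and short lines are means of 4 animals. Heart libraries lie between 38.2% and 75.9%, spleen libraries between 0% and 13.2%.

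NPR2 was split between its full transcript ENSSSCT00000039546 (23 exons, 3144 coding bases) and PB.1644.3 (17 exons, 1740 coding bases), which starts inside the gene at 236519857. PB.1644.3 took 42.0% of NPR2 TPM in heart, 43.4% in kidney, 46.8% in spleen, 54.4% in lung and 56.0% in liver, and no shift between organs reached 20 points. In liver, where NPR2 differed by pig group, its share was 40.05% to 61.3% in BS and 53.8% to 70.2% in DSE, with overlap between the groups. No full-length read of PB.1644.3 was counted in the libraries used here. NPPB came mainly from its 3-exon transcript ENSSSCT00000003809, with 87.5% ± 7.0 of TPM in heart (SD, n = 8). The share was 92.8% to 95.4% in BS hearts and 78.2% to 84.9% in DSE hearts, without overlap, a difference picked out after its values were seen and not tested. The remainder came from PB.8692.2, which has 2 exons and no annotated coding sequence. That transcript had 1 of the 19 full-length NPPB reads.

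CORIN in heart was shared between ENSSSCT00000048072 (43.7% of TPM) and PB.11096.10 (42.9%), both with 22 exons. In liver ENSSSCT00000048072 led with 67.5%, and in spleen both were listed at 0. The spleen level came wholly from PB.11096.12 in the BS animals and wholly from PB.11096.11 in the DSE animals. PB.11096.12 has 19 exons and begins further downstream. At gene levels of 0.433 to 1.12 TPM this is a description of the authors' estimates, not tested. PB.11096.20 was listed at 0 TPM in all 40 short-read libraries, although 29 full-length reads were assigned to it in the 2 heart libraries.

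In heart the pig groups differed in both directions. BS hearts had more NPR1 and less NPR3 and CORIN than DSE hearts, while NPPA, NPPB and NPR2 did not pass the test. This was 3 of 6 genes, beside 33.3% of the 12283 genes tested in heart, so a called gene is common here. NPR1 measured 15.8, 18.0, 23.4 and 22.7 TPM in BS and 12.7, 12.9, 10.8 and 10.97 TPM in DSE, without overlap (log2 difference on the TPM + 1 scale 0.69, SE 0.18, adjusted p = 0.00335, limma). NPR3 measured 10.6, 9.80, 10.6 and 26.3 TPM in BS and 25.8, 32.5, 34.2 and 26.4 TPM in DSE. The BS4 heart lay among the DSE hearts. The log2 difference was -1.11 (SE 0.31, adjusted p = 0.00638, limma) and -1.43 without animal BS4 (adjusted p = 2.45e-04, limma). CORIN, with the values given above, was lower in BS (-0.80 on the same scale, SE 0.19, adjusted p = 0.00185, limma), and BS3 was its only heart above the lowest DSE heart.

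**Figure D4:**
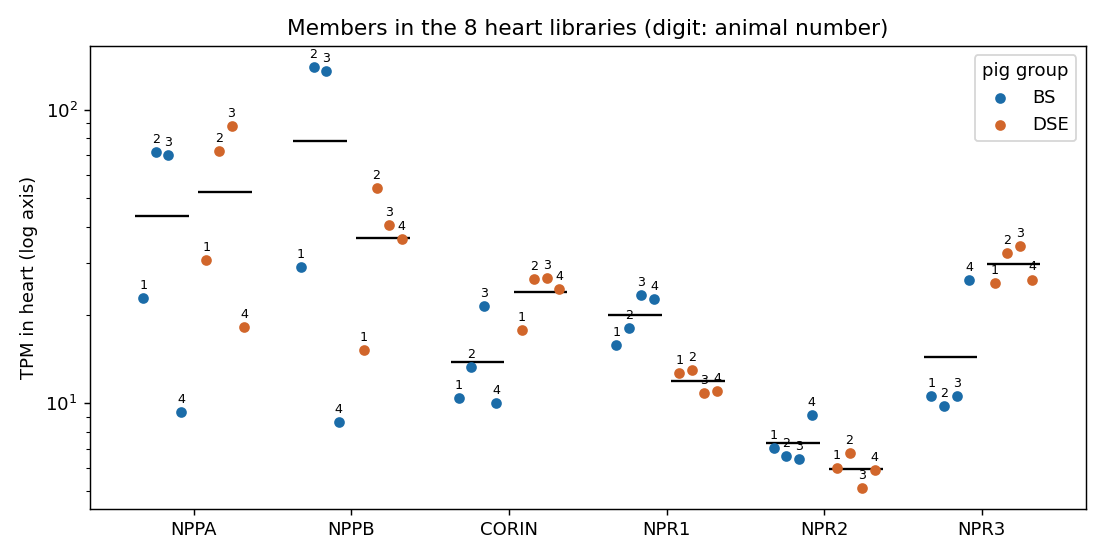
TPM (logarithmic axis) of the 6 genes in the 8 heart libraries; blue points are BS, orange points DSE, digits are animal numbers and short lines are means of 4 animals. NPR1 separates the pig groups (15.8 TPM or more in BS, 12.9 TPM or less in DSE), and for NPR3 the BS4 heart, at 26.3 TPM, lies with the DSE hearts.

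For NPPA the heart difference was -0.41 (SE 0.37, adjusted p = 0.394, limma) and for NPPB 0.51 (SE 0.46, adjusted p = 0.412, limma). Both moved with animal BS4, which had the lowest level of both peptide genes. Without it NPPA went to 0.15 (adjusted p = 0.728, limma) and NPPB to 1.28 (adjusted p = 0.0102, limma), and without animal BS2 NPPB went to -0.01 (adjusted p = 0.994, limma). NPR2 was 0.25 higher in BS hearts (adjusted p = 0.405, limma). The log2 ratio of NPPA to NPPB was -0.54 ± 0.52 in BS and 0.39 ± 0.97 in DSE (SD, n = 4 each), a difference of -0.93 that an exact permutation test did not separate from the spread between animals (two-sided p = 0.171, smallest possible 0.0286). DSE4, at -0.99, lay below every BS heart (lowest -0.96), while the other DSE hearts lay above every BS heart (highest 0.11).

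Across the 8 hearts NPPA and NPPB had a Pearson's r of 0.78 (exact permutation p = 0.0270, adjusted over 3 pairs 0.0811) and a Spearman's rho of 0.69 (exact p = 0.0694, adjusted 0.104). Without the 2 hearts farthest from the median of NPPA, BS4 and DSE4, r was 0.67 (exact p = 0.151, n = 6), so the relation did not pass a threshold once adjusted. NPPA with CORIN had r = 0.58 (exact p = 0.129, adjusted 0.194), rho = 0.69 (exact p = 0.0694, adjusted 0.104) and r = 0.71 without the same hearts (exact p = 0.121, n = 6). NPPB with CORIN had r = 0.36 (exact p = 0.372, adjusted 0.372), rho = 0.43 (exact p = 0.299, adjusted 0.299) and r = 0.36 without BS2 and BS4 (exact p = 0.429, n = 6). These values pool both pig groups and so include any difference between them. No relation was computed within a pig group, which held 4 hearts.

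Marker lists of several cell types were also compared between the heart groups, where 33.3% of all genes tested were called in either direction. Counts such as 4 of 12 or 3 of 8 are near that share. The 12 endothelial and endocardial markers summed to 418 to 611 TPM in BS hearts and 357 to 373 TPM in DSE hearts, without overlap. Of them 4 were higher in BS and 0 were lower (limma, adjusted p under 0.05): EGFL7, CLDN5, PLVAP and NFATC1. The general markers PECAM1 and CDH5 differed by 0.26 and 0.34 (adjusted p = 0.236 and 0.245, limma), and none of the 12 was at 0 on average. The 9 measured cardiomyocyte markers summed to 52523 to 64300 TPM in BS and 44926 to 51069 TPM in DSE, higher in BS, while CORIN was lower. Of these 9 markers, 1 was called higher in BS and 0 lower. The heart sums are TPM that were not rescaled for the mitochondrial share. That share was lower in BS hearts (33.9% to 36.1%) than in DSE hearts (38.3% to 46.0%), and its part in the sums was not tested. The 8 smooth muscle markers summed to 3388 to 4591 TPM in BS and 2404 to 3361 TPM in DSE, with 3 higher in BS. Sums of the 9 fibroblast markers overlapped, at 848 to 1471 TPM in BS and 800 to 1227 TPM in DSE, with 2 higher in BS and 0 lower. The 9 ventricular markers had 0 calls between the groups and summed to 24513 to 29992 TPM over all hearts. By comparison the 12 atrial markers summed to 85.6 to 116 TPM in BS and 78.0 to 93.7 TPM in DSE, with overlap. Of these 12, 2 were heart-enriched. Among them BMP10 was listed at 0 in 6 of 8 hearts, while SLN (0.839 to 8.49 TPM), MYL4 (2.42 to 12.6 TPM) and GJA5 (6.37 to 17.96 TPM) were above 0 in all 8. The part of these cells in the results was not tested, and in whole organs fewer cells of a type and less RNA per cell cannot be told apart.

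Other heart genes gave the setting. Of 12 cardiac transcription factors, 3 were higher in BS and 2 lower: NKX2-5 (0.93, adjusted p = 2.71e-06), SRF (0.82) and GATA4 (0.36) were higher, and MEF2C (-0.62) and TBX20 (-0.43, adjusted p = 5.98e-05) were lower (limma). Their median difference was 0.00, beside 0.03 over all genes tested, of which 33.3% were called in heart. Another list held genes that change in the stressed or hypertrophic heart, without separating those that rise from those that fall. Its counts, median and sum therefore give no direction of stress. Of its 10 tested genes 3 were higher in BS and 0 lower: MYH6 (1.64, adjusted p = 1.79e-04), CLU (1.01) and XIRP2 (0.44) (limma). This stands beside the 33.3% of all genes called in heart in either direction. The median difference over the 10 members of that list tested in heart was 0.49, beside 0.03 over all genes tested, and the list summed to 23342 to 26030 TPM in BS and 14025 to 18963 TPM in DSE, without overlap. The most abundant of that list, ACTA1, MYH7 and ANKRD1, did not pass (adjusted p = 0.387, 0.756 and 0.612, limma).

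In liver NPR2 differed between the pig groups. All 4 BS livers (13.3 to 23.1 TPM) exceeded all 4 DSE livers (1.15 to 5.39 TPM), and the means differed 6.10-fold. On the log2(TPM + 1) scale the difference was 2.37 (SE 0.23, adjusted p = 1.74e-09, limma), and 2.36 without the BS4 liver library (adjusted p = 2.10e-08, limma). In kidney, lung, spleen and heart NPR2 differed by 0.05 to 0.25 (adjusted p = 0.405 to 0.869, limma). An interaction test over the 5 organs found that the NPR2 difference varied between organs (F = 19.5, adjusted p = 1.33e-05, limma). It did so for 1 of the 6 genes, beside 7.24% of the 15118 genes tested. The interaction test had no term for the animal, although each animal gave all 5 organs. CORIN did not pass this test (adjusted p = 0.104, limma), though it did without BS3 (adjusted p = 0.0121) and with the mitochondrial genes removed (adjusted p = 0.0492). The 4 others did not pass (adjusted p = 0.329 to 0.947, limma).

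**Figure D5:**
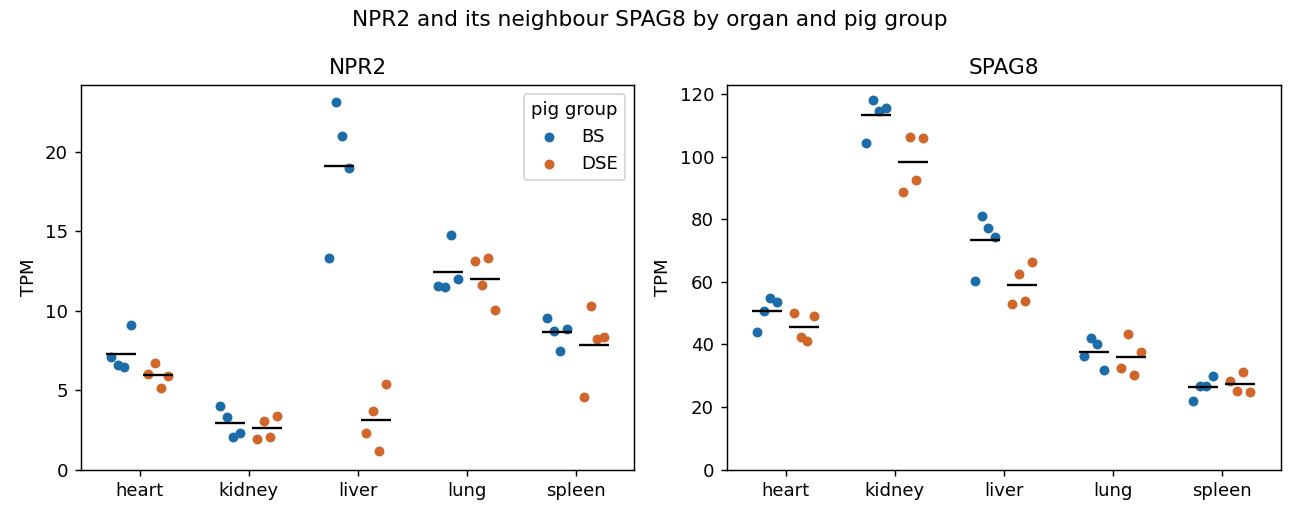
TPM (vertical axis) of NPR2 and of SPAG8, the gene 119 bases beyond its end, by organ; each point is 1 library, blue for BS and orange for DSE, and short lines are means of 4 animals. NPR2 in liver separates BS (13.3 to 23.1 TPM) from DSE (1.15 to 5.39 TPM), while the SPAG8 groups overlap in every organ.

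Over the organs SPAG8 did not follow NPR2. It was highest in kidney, at 88.8 to 118 TPM, where NPR2 was lowest. In liver SPAG8 had 60.4 to 81.2 TPM in BS and 52.8 to 66.2 TPM in DSE, with overlap and a ratio of means of 1.24. Within liver, however, both genes ordered the BS animals alike, with BS2 highest, then BS3, BS4 and BS1. In DSE both had DSE4 highest and DSE2 next, and only DSE1 and DSE3 changed places. This likeness was not tested. Among liver cell markers, 8 stellate cell markers summed to 108 to 133 TPM in BS and 96.2 to 111 TPM in DSE, with 1 gene higher in BS (LHX2, 0.45, adjusted p = 2.38e-04) and 1 lower (RELN, -0.46, adjusted p = 0.0271) (limma). The 8 smooth muscle markers summed to 103 to 219 TPM in BS (219 TPM in the BS4 library) and 73.8 to 81.8 TPM in DSE, without overlap. Of them 4 were higher in BS, beside 36.2% of all genes called in liver in either direction. The 12 endothelial markers summed to 268 to 369 TPM in BS and 214 to 299 TPM in DSE. Hepatocyte markers, 7 genes with 0 calls, summed to 59285 to 78996 TPM in BS and 78684 to 117593 TPM in DSE. Their part in the NPR2 result was not tested.

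The other receptors differed by smaller amounts and in more organs. NPR1 was 0.61 higher in BS livers (SE 0.18, adjusted p = 0.00772) and 0.48 higher in BS kidneys (SE 0.18, adjusted p = 0.0295), and 0.25 and 0.37 higher in lung and spleen without passing the test (adjusted p = 0.244 and 0.0993, limma). In liver it measured 9.82, 8.44, 6.80 and 5.64 TPM in BS and 6.09, 4.31, 4.76 and 3.43 TPM in DSE. In kidney all BS animals (10.2 to 18.2 TPM) exceeded all DSE animals (8.37 to 9.94 TPM). The kidney call was lost with replicate numbers as a block (adjusted p = 0.0930) and in 4 of the 8 fits without 1 animal (adjusted p up to 0.157, without BS2), and the liver call was lost without DSE4 (adjusted p = 0.0558, limma). Without the BS4 liver library the liver difference was 0.73 (adjusted p = 0.00320, limma). The 12 endothelial markers of kidney summed to 438 to 613 TPM in BS and 403 to 469 TPM in DSE, with 2 higher in BS and 0 lower. In lung 2 of them were higher and 3 lower, and in spleen 1 was higher and 0 lower. Their part in the NPR1 results was not tested. Of the 6 genes studied, the called counts were 3 of 4 tested in liver (36.2% of all genes tested there), 1 of 3 in kidney (45.5%), 1 of 4 in lung (55.4%), where the called gene, NPPB, had passed the filter only through its higher group, and 0 of 3 in spleen (35.8%).

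The NPR3 difference was negative in every organ, between -0.55 and -0.47 outside the heart, where no organ passed the test (adjusted p = 0.148 to 0.212, limma). Animal BS4 had the highest NPR3 of the BS animals in kidney (19.2 TPM) and lung (33.6 TPM), as in heart. Without it the difference was -0.74 in kidney and -0.78 in lung, and both passed (adjusted p = 0.0269 and 0.0163, limma). CORIN in liver was 0.51 lower in BS (SE 0.19, adjusted p = 0.0387, limma), with 1.87, 0.747, 2.64 and 1.37 TPM in BS and 2.84, 2.09, 3.73 and 2.20 TPM in DSE. This call was lost without the BS4 liver library (adjusted p = 0.0870, limma), without 4 of the 8 animals in turn (BS2, BS4, DSE1 and DSE3, adjusted p up to 0.224), and with 3 other settings.

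NPPB in lung was 1.53 higher in BS on the log2(TPM + 1) scale (SE 0.47, adjusted p = 0.00628, limma). It entered this test through the BS lungs alone, whose mean was 2.60 TPM against 0.154 TPM in DSE, so the call adds nothing to the levels themselves. The 9 lung cardiomyocyte markers summed to 6.38 to 21.9 TPM in BS, to 12.8 to 12.9 TPM in 3 of the DSE lungs and to 64.6 TPM in DSE2. None of the 5 tested was higher in BS and 2 were lower, beside 55.4% of all genes called in lung. The part of these markers in the NPPB values was not tested, and NPPA was listed at 0 in all 4 BS lungs. With a pseudocount of 0.1 TPM the difference was 3.63 (adjusted p = 7.36e-05, limma), at DSE levels of 0 to 0.545 TPM.

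Over the organs together, on each animal's mean of log2(TPM + 1), 4 of the 6 genes were called, beside 59.9% of the 15118 genes tested. NPR1 was higher in BS by 0.48 (SE 0.08, adjusted p = 6.29e-04), NPR2 by 0.59 (SE 0.10, adjusted p = 0.00106), NPR3 was lower (-0.63, SE 0.17, adjusted p = 0.00866) and CORIN lower (-0.26, SE 0.09, adjusted p = 0.0343) (limma). For NPR2 the mean over organs combines 1 large difference in liver with small ones elsewhere. NPPB (0.44, adjusted p = 0.0913) and NPPA (-0.08, adjusted p = 0.651) did not pass (limma). CORIN lost its call in 6 of the 8 fits without 1 animal (adjusted p up to 0.0885), all but those without BS3 or DSE1, and in 2 other settings. NPPB gained one with a pseudocount of 0.1 TPM (adjusted p = 0.0157), without BS1 or BS4 (adjusted p = 0.0497 and 0.0272) and with the number as a block (adjusted p = 0.0320, limma), although the numbers were not found to pair the animals.

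Genes that make, cut or break down these peptides were followed from a fixed list of 11. NPPC, the gene of the C-type peptide that NPR2 binds, was a spleen gene here, at 4.80 ± 4.49 TPM (SD, n = 8) against a mean of 0.174 TPM or less elsewhere, and in spleen it was 1.09 higher in BS (adjusted p = 6.90e-05, limma). FURIN, a convertase of many propeptides, was highest in liver (88.1 TPM) and was higher in BS in heart by 0.66 (adjusted p = 0.00227), in liver by 0.92, in lung by 0.58 and in kidney by 0.47 (limma). PCSK6, a convertase known to activate corin, was at least 4-fold higher in liver (87.1 TPM) than elsewhere. MME, the gene of neprilysin, which degrades the peptides, was at least 4-fold higher in kidney (808 ± 416 TPM, SD, n = 8) and was lower in BS kidneys (-1.45, adjusted p = 3.78e-04, limma). Of 6 proximal tubule markers 3 were lower in BS and 0 higher, beside 45.5% of all genes called in kidney. Their sums were 1743, 2054, 4361 and 3366 TPM in BS animals 1 to 4 and 3125 to 3740 TPM in DSE. The 7 distal nephron markers, 2 higher in BS and 1 lower, summed to 3863 to 8320 TPM in BS and 3364 to 4006 TPM in DSE, and the part of these cells in the MME result was not tested. IDE, a further degrading enzyme, was lower in BS hearts (-0.66, adjusted p = 0.0417, limma). In heart PAM (199 TPM) and DPP4 (30.8 TPM) were the most abundant of the list. Of the 8 tested in heart, 1 was higher in BS and 1 lower, beside 33.3% of all genes called there. Their median was -0.16, beside 0.03 over all genes tested. In lung 1 of 8 was higher and 5 lower, beside 55.4% of all genes called there, with a median of -0.64 beside -0.21.

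Downstream of the receptors, 16 of 17 listed genes of cyclic GMP signalling were in the table. PDE3A, a phosphodiesterase that cyclic GMP inhibits, was at least 4-fold higher in heart (59.2 ± 17.3 TPM, SD, n = 8), and PDE5A, which degrades cyclic GMP, was at least 4-fold higher in lung (44.8 ± 8.54 TPM), the organ with the highest NPR1 on the TPM scale. The other abundant members in heart were VASP, PPP1R12A and GUCY1B1, and in lung VASP, RGS2 and PPP1R12A. In heart VASP, a target of cyclic GMP-dependent kinase, was 0.69 higher in BS (adjusted p = 4.81e-05) and PPP1R12A, a subunit of myosin phosphatase, was lower (-0.55, adjusted p = 0.0157), and the 11 others tested did not pass (limma). The median over the 13 tested in heart was 0.02, beside 0.03 over all genes. PRKG1, the kinase itself, was lower in BS in lung (-0.61, adjusted p = 0.00876) and spleen (-0.95, adjusted p = 4.09e-04) and had -0.33 in heart (adjusted p = 0.194, limma). In lung 6 of 9 fibroblast markers were also lower in BS and 1 higher, beside 55.4% of all genes called there. They summed to 546 to 1177 TPM in BS and 1235 to 1748 TPM in DSE, and their part in the PRKG1 result was not tested. Counts of higher and lower genes in BS are given with the share of all genes called in that organ in either direction. They were 1 and 1 of 13 in heart (33.3%), 0 and 2 of 13 in spleen (35.8%) and 1 and 4 of 13 in lung (55.4%). In liver they were 2 and 0 of 12 (36.2%) and in kidney 1 and 1 of 15 (45.5%).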

How the data were processed

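RNA was measured by Illumina (40 libraries used) and PacBio IsoSeq (10 libraries used). Per the labels, extraction was with Trizol and acid phenol, and only the Illumina libraries were depleted of ribosomal RNA. The authors deposited gene and transcript levels as TPM, and the long reads as a table of full-length read counts for each transcript. STAR 2.7.10a, Salmon 1.10.1 and susScr11 appear in the submitters' processing notes, without the step each served. The annotation file names rtracklayer 1.58.0, per the file headers. With TPM alone, the precision of low levels is unknown. Columns whose code matches no label (20 for gene TPM, 20 for transcript TPM, 5 for counts) were left out. Samples were grouped by title. The p-values measure the spread between these samples, since independence beyond the animal codes is not stated.

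The tests were limma 3.58.1 (R 4.3.3, log2(TPM + 1), trend, Benjamini-Hochberg over all genes tested), for genes reaching a mean of 1 TPM in a compared group. Usage tests required a gene mean of 5 TPM and a share of 5%, with a pseudocount of 0.5 TPM. Long reads were assigned to genes by their transcript (51.9%) or locus (35.9%), and 12.3% were left out. The gene sums were tested with edgeR 4.0.16 with pig group as a term, and with DESeq2 1.42.0 as an alternative. Ratios and correlations had exact tests (Python 3.11.15, scipy 1.17.1). Scripts were tested on simulated data. The text names all 6 genes, up to 4 of the most abundant genes of each list in the organ discussed, list genes that differed between pig groups in heart, the 3 nearest profiles and transcripts with at least 10% of their gene. Other named genes (NPPC, PRKG1, LHX2, RELN, PECAM1, CDH5, BMP10, SLN, MYL4 and GJA5) and transcripts of CORIN in spleen were chosen after their values were seen. The genes and lists were chosen with earlier results of these data known. The animal code pairs organs: deviations of the same animal in other organs had a median correlation of 0.117, with 47 of 80 over 0.1. Between pig groups, same-numbered animals had 0 of 4 correlations over 0.1 in every organ. Alternatives were a pseudocount of 0.1 TPM, no filter, 2 other scalings, a replicate block and leaving out each animal.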

Additional observations from a re-analysis of the deposited data

Results flagged for a closer look

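In groups of 4 animals, 9 values lay far from the other 3 by Dixon's 95% criterion, among 52 groups of 4 tested; chance flags about 1 in 20 groups. Of these, 6 rest on peptide genes outside the heart with most libraries at 0 or close to it. For NPPA they were 0.0805 TPM in the BS4 liver and 0.0368 TPM in the DSE4 lung. For NPPB they were 0.313 TPM in the BS4 kidney, 0.139 TPM in the DSE1 liver, 0.545 TPM in the DSE3 lung (next 0.0719) and 0.448 TPM in the BS3 spleen (next 0.0578). NPR3 was high in the BS4 heart (26.3 TPM, next 10.6) and in the DSE1 spleen (30.1 TPM, next 19.3). NPR2 in the BS3 lung had 14.7 TPM (next 12.0). The difference of NPR2 between BS and DSE varied between the organs by the interaction test (F = 19.5), with the liver value given in the report.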

How the results depend on the processing

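Of the values that answer a comparison, 154 alternatives kept direction and side of the threshold, 3 counts moved, 5 values reversed and 1 weakened; of the other values 500 kept both, 12 strengthened, 43 weakened and 7 reversed. With median-ratio scaling, lung against heart became -0.28 for NPR1 and -1.22 for NPR3, and lung against liver became -0.70 for NPR2; without mitochondrial genes NPR3 lung against heart became -0.50. The replicate block left NPR2 lung against liver at 0.60 but past the threshold no longer (adjusted p = 0.0517, limma), kept 29 organ comparisons and 11 transcript comparisons called, and gave 6 in place of 8 pig group calls within organs and 5 in place of 4 over organs. Without the low-count filter, 7 in place of 4 full-length comparisons were called. The cause of these changes was not tested. Leaving out 1 animal moved NPR3 lung against heart between -0.00038 and 0.20, and transcript calls between 7 and 10. It moved BS minus DSE between -0.82 and 0.15 (NPPA heart), -0.16 and 0.028 (NPPA over organs), -0.0058 and 1.28 (NPPB heart), -0.013 and 0.22 (NPR2 kidney), -0.029 and 0.096 (NPR2 lung) and -0.042 and 0.30 (NPR2 spleen). Pig group calls within organs numbered 6 to 11 over all settings, with 11 without BS4. Leaving out a whole pig group from the full-length test was not run, since no residual degrees of freedom remain; single heart libraries were left out instead, chosen after seeing the data, as were the fits without the BS4 liver library. Short-read depth is unknown, so low levels have no counting limit.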
